A study of Mus musculus with 47 samples.

Results

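*Srf* and the genes of the smooth-muscle-type contractile apparatus were described across all groups of the series. The 10 genes (*Srf*, *Acta2*, *Actg2*, *Tagln*, *Cnn1*, *Cnn2*, *Myl9*, *Myh11*, *Lmod1* and *Actn1*) were chosen by name from the 45706 genes of the deposited count tables, and all 10 were present.

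SRF is a transcription factor that binds the CArG box, a short A- and T-rich element found upstream of muscle actin genes, other cytoskeletal genes and immediate early genes. Its partners set its targets: the MRTF coactivators answer the state of the actin cytoskeleton, myocardin drives smooth muscle genes, and the ETS-family ELK factors answer growth factor signaling. *Acta2* and *Actg2* encode smooth muscle actins, the products of *Tagln*, *Cnn1* and *Cnn2* bind actin filaments, *Myl9* and *Myh11* encode a light and a heavy chain of smooth muscle myosin, LMOD1 nucleates actin filaments and ACTN1 crosslinks them. Smooth muscle actin is also made by myoblasts early in skeletal differentiation, so these transcripts do not by themselves mark smooth muscle cells.

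The series holds RNA-seq of mouse C2C12 cells carrying a doxycycline (dox) inducible, Halo-tagged MyoD1 (C2C12 iMyoD1), or an inducible *Cdh23* (C2C12 iCdh23) or *Mcam* (C2C12 iMcam). All were drug-selected for the transgene. C2C12 iMyoD1 is polyclonal and takes on the tagged protein in only part of its nuclei, and the share of induced cells in the other lines is not known. C2C12 iMyoD1 was sampled in growth medium (0 h) and after 24, 48 and 120 h of serum withdrawal, with and without dox, and the 120 h cultures also after a 40 µm strainer had split them into a myoblast-enriched flow-through and a myotube-enriched retentate. C2C12 iCdh23 and C2C12 iMcam were sampled at 48 h, with and without dox. Dox treatment lasted 24 h in the 0 h cultures, which stayed in growth medium, and as long as the serum withdrawal in all others. Each of the 16 groups had 3 replicates except the dox-treated myoblast-enriched fraction, which had 2, for 47 libraries of 15066362 to 50950707 estimated counts (median 22837955). The 0 and 24 h libraries, the 48 h and whole-culture 120 h C2C12 iMyoD1 libraries, and the remaining libraries came in 3 separate tables. A change from 24 to 48 h therefore cannot be told apart from a difference between tables. The same holds for a difference in level between C2C12 iMyoD1 whole cultures and the adhesion gene lines or the 120 h fractions. Each dox comparison lay within 1 table. By the paper's methods, fewer cells were seeded for the undifferentiated than for the differentiating cultures. Between 0 and 24 h, medium and seeding therefore differed together, and their effects cannot be told apart. In bulk RNA, fewer cells making a transcript cannot be told apart from less of it in each cell.

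The genes that the labels give as induced were looked at first. In C2C12 iMcam, *Mcam* was at 19.5, 17.0 and 17.1 CPM (counts scaled to the size of the library) without dox and at 69.2, 70.3 and 74.5 CPM with it. *Cdh23* in C2C12 iCdh23 was already at 369, 343 and 444 CPM without dox and at 566, 416 and 464 CPM with it, while no C2C12 iMyoD1 library exceeded 28.0 CPM. The values with and without dox in C2C12 iCdh23 overlap in CPM. Scaled also to transcript length (TPM), the means of *Cdh23* there were 89.96 (SD 11.17, n = 3) without and 156.4 (SD 28.54, n = 3) with dox. The untreated C2C12 iCdh23 cultures were thus not free of the induced gene. With dox each adhesion gene line also held more transcript of the other line's gene. Mean *Mcam* in C2C12 iCdh23 was 6.22 CPM (SD 1.44, n = 3) without and 48.7 CPM (SD 4.99, n = 3) with dox. Mean *Cdh23* in C2C12 iMcam was 7.64 CPM (SD 1.83, n = 3) without and 51.2 CPM (SD 6.66, n = 3) with dox. In C2C12 iMyoD1 whole cultures *Myod1* was at 185, 174 and 184 CPM without and 202, 181 and 193 CPM with dox at 0 h, which overlap, and in CPM lower in every dox library later. It was at 142, 139.9 and 136 CPM without and 123, 118 and 109.6 CPM with dox at 24 h, at 391, 389.5 and 384.5 CPM without and 294, 319 and 300.0 CPM with dox at 48 h, and at 302, 299.9 and 228 CPM without and 80.9, 96.7 and 94.4 CPM with dox at 120 h (log2 fold change there -1.62, called down). In TPM (counts scaled also to transcript length) the means without and with dox were 181.6 (SD 6.07, n = 3) and 217.9 (SD 13.5, n = 3) at 0 h, 114.7 (SD 9.78, n = 3) and 123.5 (SD 7.71, n = 3) at 24 h, 338 (SD 3.24, n = 3) and 282 (SD 15.1, n = 3) at 48 h and 286 (SD 43.5, n = 3) and 107 (SD 10.8, n = 3) at 120 h, so that the direction at 24 h depends on the scale. The effects in this line are therefore given as effects of dox, and whether transcripts of the tagged transgene could align to the authors' reference is not known.

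In the myotube-enriched fraction the replicate 2 libraries went against their labels. A score per library was taken as the mean log2 CPM of the 997 genes called up with dox in the 120 h whole culture minus that of the 1199 called down. Without dox the myotube-enriched libraries scored -2.08, -1.03 and -2.40, and with dox -1.30, -2.67 and -0.89, so that replicate 2 ran the other way. The myoblast-enriched libraries scored -1.84, -2.35 and -2.08 without and -1.01 and -0.98 with it. The whole-culture libraries, which set the genes of the score, are not compared. Results from the myotube-enriched fraction are therefore given both with all libraries and without its replicate 2 libraries, an alternative chosen after the values were seen. The reason for the opposite scores was not tested.

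*Srf* (ENSMUSG00000015605, chr17:46548329-46556175 on GRCm38) had the narrowest range of group means among the 10 genes. Its group means ran from 43.3 CPM (SD 6.01, n = 3) in the dox-treated 120 h whole culture to 106 CPM (SD 9.75, n = 3) in untreated C2C12 iMcam, a 2.46-fold range, and 13 of the 15 pairs of groups neighbouring in level overlapped. In untreated C2C12 iMyoD1 it stood at 80.5, 76.2 and 86.3 CPM at 0 h, 44.1, 47.2 and 44.4 CPM at 24 h, 86.9, 85.9 and 87.9 CPM at 48 h and 54.4, 42.3 and 35.1 CPM at 120 h. All 24 h libraries lay below all 0 and 48 h libraries, a dip of close to 2-fold that did not pass the fold threshold (log2 fold change -0.83 from 0 to 24 h, edgeR adjusted p = 4.1e-08; 0.99 from 24 to 48 h, adjusted p = 2.9e-09; -0.95 from 48 to 120 h, adjusted p = 0.000299). With dox in C2C12 iMyoD1 whole cultures *Srf* had log2 fold changes of -0.04, 0.21, 0.05 and -0.03 at 0, 24, 48 and 120 h. At 24 h all dox libraries (50.6 to 52.1 CPM) lay above all untreated ones (edgeR adjusted p = 0.00377), and at the other times the groups overlapped. In C2C12 iCdh23 it was at 105, 92.4 and 70.0 CPM without dox and 63.9, 51.7 and 59.0 CPM with it (log2 fold change -0.62, edgeR adjusted p = 0.00987), and in C2C12 iMcam at 97.0, 117 and 105 CPM without and 68.8, 78.9 and 75.1 CPM with it (-0.50, adjusted p = 0.00477). In both lines every dox library was below every untreated one, short of a 2-fold change. *Srf* was thus never called in any comparison.

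No listed partner of SRF was called with dox. *Mrtfa*, *Mrtfb*, *Elk1*, *Elk3* and *Elk4* were tested in all 8 dox comparisons. In these, 0% to 13% of all genes were called up and 0% to 17% down. The lack of calls was not tested against those shares. Over time only *Elk3* was called, down from 0 to 24 h (log2 fold change -1.68) and again from 48 to 120 h (-1.03). Of all genes 16.6% and 18.1% were called down in these steps, so a single call in so short a list is near that share. *Myocd*, the smooth muscle coactivator, had 0 counts in 28 of the 47 libraries and never exceeded 0.295 CPM, so it was not tested.

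*Acta2* (ENSMUSG00000035783, chr19:34241090-34255590), the main smooth muscle actin gene, ranged widely. Its means ran from 49.3 CPM (SD 3.38, n = 3) at 24 h with dox to 3653 CPM (SD 225, n = 3) at 48 h without dox, 74.1-fold, and 10 of 15 neighbouring pairs of groups overlapped. The 3 lowest groups, the 24 h cultures with and without dox and dox-treated C2C12 iCdh23, were separated from all others. In untreated C2C12 iMyoD1 cultures *Acta2* was at 875, 866 and 882 CPM at 0 h, 74.1, 80.3 and 82.1 CPM at 24 h, 3913, 3528 and 3520 CPM at 48 h and 2583, 2671 and 2213 CPM at 120 h. It thus fell steeply from 0 to 24 h (log2 fold change -3.46, edgeR adjusted p = 4.7e-14) and rose steeply by 48 h (5.59, adjusted p = 3.0e-15). It stayed high to 120 h (-0.52, adjusted p = 0.00176, under the fold threshold). No 2 of the first 3 time points overlapped.

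In C2C12 iMyoD1 whole cultures dox shifted *Acta2* by less than 2-fold at every time. It was at 639, 631 and 669 CPM with dox at 0 h, 45.4, 51.6 and 50.9 CPM at 24 h, 2132, 2347 and 2354 CPM at 48 h and 1571, 1817 and 1884 CPM at 120 h. All 12 of these libraries were below all untreated libraries of the same time, with log2 fold changes of -0.43, -0.65, -0.69 and -0.51 (edgeR adjusted p = 1.8e-05, 2.8e-06, 4.4e-05 and 0.00367). In the adhesion gene lines *Acta2* was called down with dox. In C2C12 iCdh23 *Acta2* was at 2028, 2329 and 1585 CPM without dox and at 63.5, 47.5 and 90.8 CPM with it, with -4.88 as its log2 fold change (edgeR adjusted p = 1.2e-05). In C2C12 iMcam it was at 2025, 2214 and 2987 CPM without and 520, 425 and 730 CPM with dox (log2 fold change -2.09, adjusted p = 0.000524). The groups did not overlap in either line, and dox-treated C2C12 iCdh23 at 48 h held about as little *Acta2* as C2C12 iMyoD1 at 24 h.

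*Actg2* (ENSMUSG00000059430, chr6:83512905-83536265), the enteric smooth muscle actin gene, was far less abundant and was ordered differently. Its highest mean was 18.4 CPM (SD 1.36, n = 3) at 0 h with dox, followed by 16.1 CPM at 0 h without, and its lowest 1.17 CPM (SD 0.266, n = 3) in dox-treated C2C12 iCdh23, a 15.7-fold range with 13 of 15 neighbouring pairs overlapping. It fell from 0 to 24 h (log2 fold change -2.31, edgeR adjusted p = 2.0e-08), rose to 48 h (1.90, adjusted p = 1.5e-07) and fell again to 120 h (-1.21, adjusted p = 0.000229). Unlike *Acta2*, it was highest in growth medium. With dox in C2C12 iMyoD1 whole cultures it was not called, with log2 fold changes of 0.21, -0.11, -0.73 and 0.42 at 0, 24, 48 and 120 h. At 48 h it was at 11.6, 10.6 and 12.3 CPM without and 6.04, 7.16 and 7.82 CPM with dox, without overlap (adjusted p = 0.000537). *Actg2* was at 12.9, 11.3 and 9.87 CPM in untreated C2C12 iCdh23 and at 1.12, 0.938 and 1.46 CPM with dox (log2 fold change -3.27, adjusted p = 1.7e-05). In C2C12 iMcam it was at 12.3, 12.2 and 17.2 CPM without dox and 2.85, 3.07 and 3.53 CPM with it (-2.12, adjusted p = 0.000264). Both actin genes thus lost most of their transcript in both lines, with no overlap between treated and untreated libraries.

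Levels scaled by transcript length (TPM) place *Acta2* among the actins. It made up between 3.52% of all actin TPM at 24 h without dox and 22.3% at 120 h without dox, and *Actg2* at most 0.693%. *Acta1*, the skeletal actin gene, rose from 0.0122% at 0 h without dox to 55.8% in the untreated myotube-enriched fraction, where the cytoplasmic *Actb* and *Actg1* had their lowest shares (6.80% and 9.29%). In C2C12 iCdh23 the share of *Acta2* was 17.7% without dox and 3.69% with it, and in C2C12 iMcam 18.8% and 13.1%. Actin transcripts resemble each other, so reads may have been divided among them imperfectly.

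**Figure D1:**
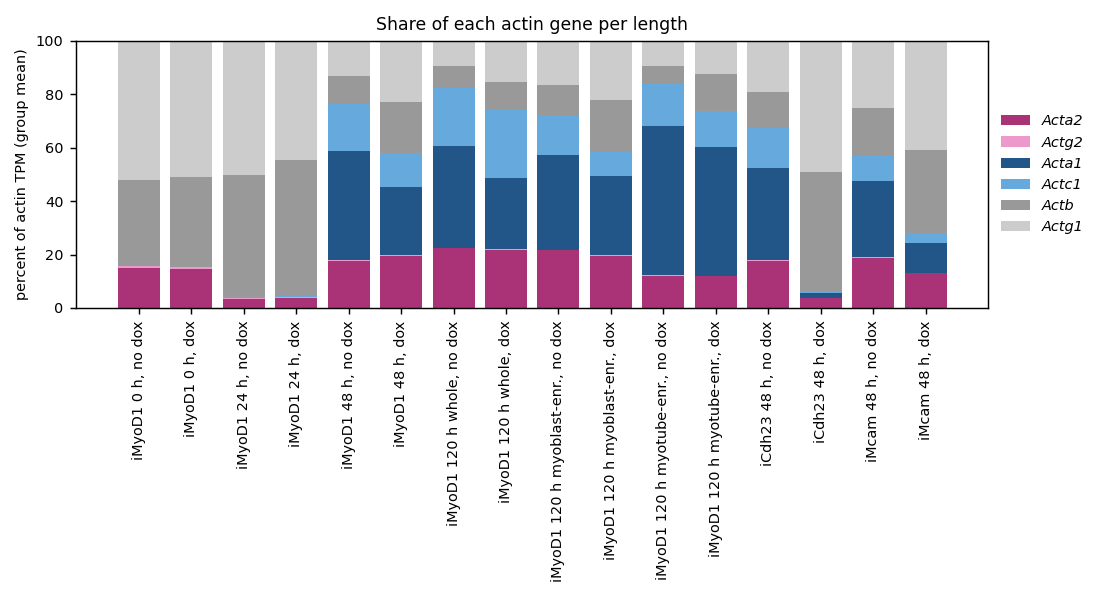
Share of the summed actin TPM held by each of 6 actin genes, in percent, as the mean of each of the 16 groups. *Acta2* ranges from 3.52% to 22.3%, and *Actg2* is hardly visible at up to 0.693%.

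*Tagln* (ENSMUSG00000032085, chr9:45929619-45936058), whose product bundles actin filaments, fell to 24 h and rose to 48 h, as *Acta2* did, and then fell again. Its means ran from 3.14 CPM (SD 0.506, n = 3) at 24 h without dox to 163 CPM (SD 88.5, n = 3) in untreated C2C12 iMcam, 51.8-fold, with 9 of 15 neighbouring pairs overlapping. In untreated C2C12 iMyoD1 it was at 44.5, 43.3 and 41.5 CPM at 0 h, 2.57, 3.31 and 3.54 CPM at 24 h, 117, 118 and 125 CPM at 48 h and 32.8, 32.0 and 19.2 CPM at 120 h. The groups did not overlap at any step: it fell (log2 fold change -3.75, edgeR adjusted p = 2.0e-12), rose (5.29, adjusted p = 1.5e-14) and fell again (-2.06, adjusted p = 1.2e-05). In C2C12 iMyoD1 whole cultures dox did not change *Tagln* past 2-fold at any time (log2 fold changes -0.16, 0.71, -0.26 and 0.85), but all dox libraries lay above the untreated ones at 24 h (4.30 to 6.13 CPM) and 120 h (46.3 to 54.9 CPM), where those of *Acta2* lay below. In C2C12 iCdh23 it was at 68.8, 60.9 and 56.3 CPM without dox and at 11.2, 6.56 and 7.24 CPM with it (-2.90, adjusted p = 2.4e-05). In C2C12 iMcam it was at 114, 109.8 and 265 CPM without and 48.3, 30.1 and 52.0 CPM with dox (-1.88, adjusted p = 0.00504). The high untreated replicate 3 enlarged that fall; without it the log2 fold change was -1.35, still called.

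*Cnn1* (ENSMUSG00000001349, chr9:22099216-22109630), the smooth muscle calponin gene, was rare but was called up with dox at every time in C2C12 iMyoD1 whole cultures. It never exceeded 7.11 CPM in a library; its means ran from 0.218 CPM (SD 0.0717, n = 3) at 24 h without dox to 6.33 CPM (SD 0.771, n = 3) at 0 h with dox, 29.0-fold, and 12 of 15 neighbouring pairs overlapped. *Cnn1* was at 2.49, 3.93 and 2.95 CPM without and 6.32, 5.57 and 7.11 CPM with dox at 0 h, and at 0.291, 0.147 and 0.217 CPM without and 1.06, 0.897 and 1.09 CPM with dox at 24 h. At 48 h it was at 1.19, 1.66 and 1.71 CPM without and 2.92, 3.21 and 3.39 CPM with dox, and at 120 h at 0.340, 0.0894 and 0.423 CPM without and 2.10, 3.61 and 3.14 CPM with dox. At each of the 4 times all 3 dox libraries were above all 3 untreated ones. The log2 fold changes were 1.02, 2.25, 1.04 and 3.35 (edgeR adjusted p = 0.00112, 0.000183, 0.00192 and 0.000743). The calls at 24 and 120 h held in all 11 alternatives, 1 of them without a filter on low counts, whereas those at 0 and 48 h did not. At 24 and 120 h the untreated libraries were too low for that filter, which *Cnn1* passed through its dox libraries. Neither was called with all groups in 1 fit, at 1.02 and 1.05, as the adjusted p missed its threshold. Leaving out a library took the value under 2-fold: at 0 h the value was 0.93 without dox replicate 3, 0.89 without untreated replicate 1 and 0.97 without untreated replicate 3, and at 48 h 0.90 without untreated replicate 1 and just under 1.00 without dox replicate 3, none of them called. In C2C12 iCdh23 *Cnn1* rose from 0.795, 0.526 and 0.470 CPM to 2.04, 1.29 and 1.43 CPM (log2 fold change 1.39, adjusted p = 0.00625), while *Acta2* and *Tagln* fell. In C2C12 iMcam it did not change (-0.09).

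Without dox, *Cnn1* was called in each step over time, falling from 0 to 24 h (log2 fold change -3.81, edgeR adjusted p = 2.3e-07), rising to 48 h (2.84, adjusted p = 1.3e-05) and falling to 120 h (-2.37, adjusted p = 0.00176). At such low levels these changes rest on few reads, and in each step *Cnn1* passed the filter on low counts through its 0 or 48 h libraries.

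*Cnn2* (ENSMUSG00000004665, chr10:79988584-79996062), the broadly expressed calponin gene, was called in each step over time. Its means ran from 49.8 CPM (SD 11.8, n = 3) at 120 h without dox to 307 CPM (SD 4.47, n = 3) at 0 h without dox, 6.17-fold, and 10 of 15 neighbouring pairs overlapped. In untreated C2C12 iMyoD1 it was at 311, 308 and 302 CPM at 0 h, 56.1, 57.1 and 62.4 CPM at 24 h, 190.3, 174 and 196 CPM at 48 h and 59.7, 53.0 and 36.7 CPM at 120 h. Each step separated all libraries of its pair of groups and was called (log2 fold changes -2.38, 1.72 and -1.87; edgeR adjusted p = 6.2e-13, 4.4e-11 and 1.0e-05). In these cultures dox did not move *Cnn2* past 2-fold (-0.31, 0.49, 0.39 and 0.45). In C2C12 iCdh23 it was at 252, 197 and 140.4 CPM without and 109.9, 91.0 and 83.8 CPM with dox, without overlap (-1.05, adjusted p = 0.00338). That call was lost without untreated replicate 1 (-0.84) or dox replicate 3 (-0.97). The C2C12 iMcam libraries held 320, 298 and 290.1 CPM without and 220.0, 196 and 191 CPM with dox, without overlap but under 2-fold (-0.56, adjusted p = 0.00267). Most calponin transcript was neither gene: *Cnn3* held 69.2% to 96.1% of calponin TPM, *Cnn2* 3.88% to 30.5% and *Cnn1* at most 0.705%.

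**Figure D2:**
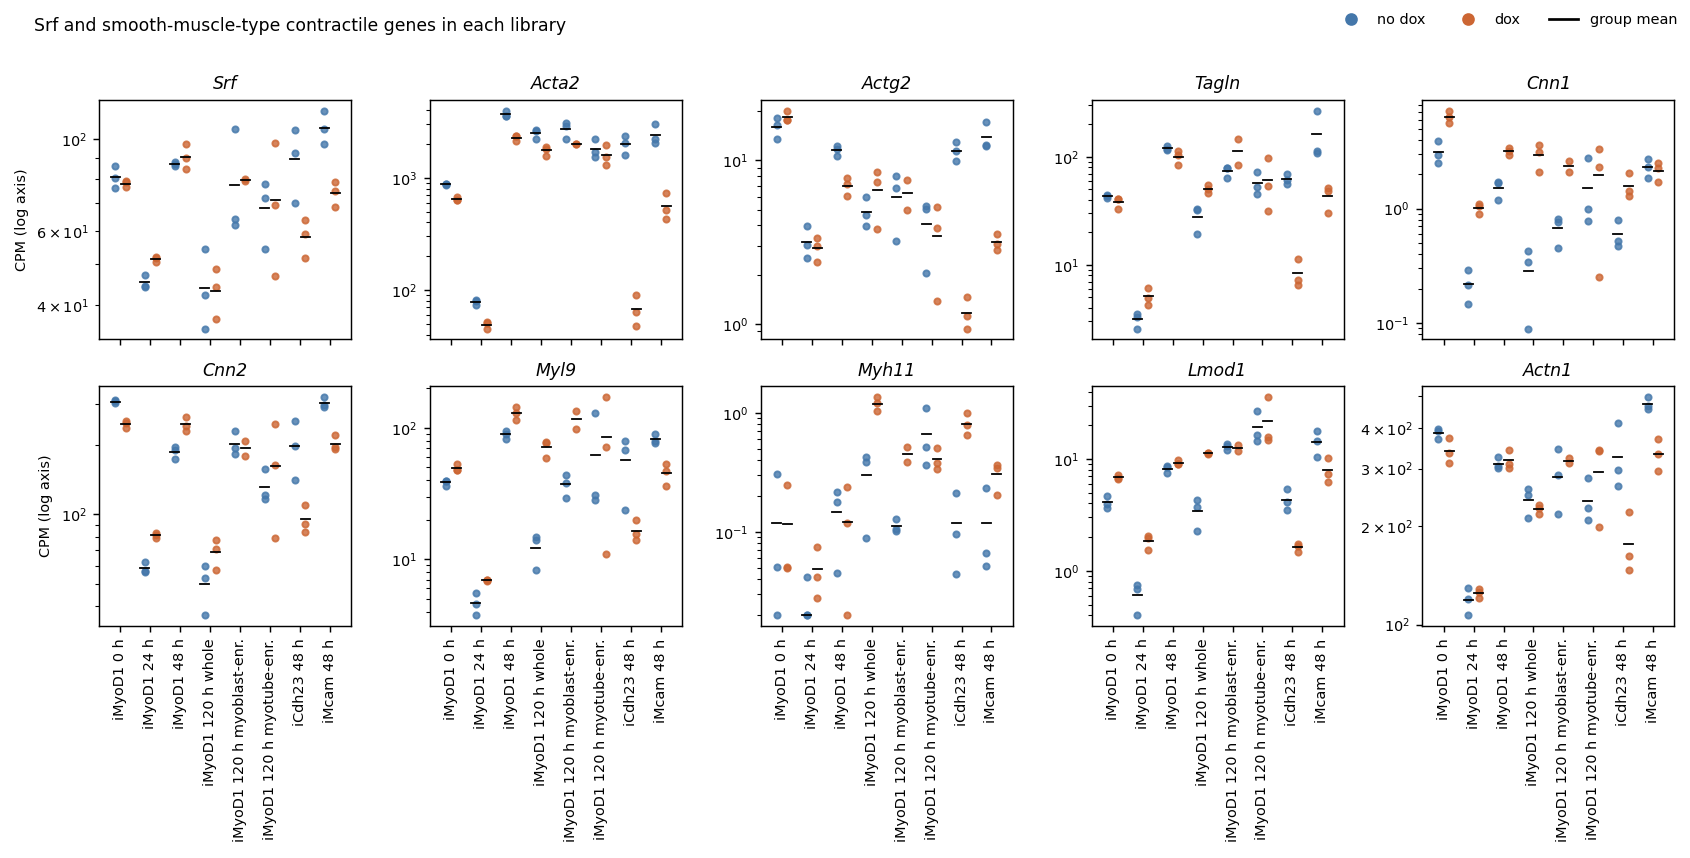
Level of each of the 10 genes in CPM on a log axis, with 1 point per library in the 8 settings (blue, no dox; orange, dox) and a black line at each group mean. *Acta2* spans 49.3 to 3653 CPM between group means, and *Srf* 43.3 to 106 CPM.

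*Myl9* (ENSMUSG00000067818, chr2:156775420-156781658), the smooth-muscle-type regulatory light chain gene, was higher with dox at every time in C2C12 iMyoD1 whole cultures, and past 2-fold at 120 h. Its means ran from 4.64 CPM (SD 0.877, n = 3) at 24 h without dox to 129.7 CPM (SD 15.2, n = 3) at 48 h with dox, 28.0-fold, and 11 of 15 neighbouring pairs overlapped. In untreated C2C12 iMyoD1 it was at 39.6, 39.5 and 36.0 CPM at 0 h, 3.78, 4.602 and 5.53 CPM at 24 h, 95.3, 82.5 and 89.3 CPM at 48 h and 14.7, 13.9 and 8.23 CPM at 120 h. It fell, rose and fell again without overlap (log2 fold changes -3.03, 4.30 and -2.82; edgeR adjusted p = 3.1e-11, 4.0e-13 and 3.3e-06). With dox the 120 h libraries were at 59.1, 78.5 and 77.3 CPM, so all 3 lay above the untreated ones (log2 fold change 2.54, adjusted p = 2.2e-05). At 0, 24 and 48 h the dox effect stayed under 2-fold (0.39, 0.60 and 0.54), although all dox libraries again lay above all untreated ones, at 47.6 to 53.5 CPM at 0 h, 6.86 to 6.99 CPM at 24 h and 114.6 to 144.9 CPM at 48 h. In the treated cultures *Myl9* therefore fell less after 48 h. Among regulatory light chain genes it was minor, with 1.05% to 12.4% of their TPM, most of the rest being *Myl12a* (70.7% to 94.7%).

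In C2C12 iCdh23 *Myl9* was at 79.7, 68.2 and 23.5 CPM without dox and 19.8, 14.0 and 15.7 CPM with it, a fall without overlap although untreated replicate 3 was close to the treated libraries (log2 fold change -1.80, edgeR adjusted p = 0.00619). In C2C12 iMcam it was at 79.4, 76.4 and 90.03 CPM without and 46.6, 35.9 and 52.9 CPM with dox (-0.84, adjusted p = 0.00301, under the fold threshold).

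*Myh11* (ENSMUSG00000018830, chr16:14194535-14291372), the smooth muscle myosin heavy chain gene, was barely present. No library exceeded 1.35 CPM, 4 of 47 libraries had 0 counts, and 3 groups were at or under the floor of 3 counts; 13 of 15 neighbouring pairs of groups overlapped. It held at most 0.142% of the TPM of nonsarcomeric class II heavy chains, of which *Myh9* held 80.3% to 93.6%. *Myh11* was at 0.389, 0.0894 and 0.423 CPM without dox and 1.20, 1.04 and 1.35 CPM with it in the 120 h whole culture (log2 fold change 1.98, edgeR adjusted p = 0.0168). Over 11 alternatives the adjusted p ran from 0.00771 to 0.0589, and the call was lost without untreated replicate 2 (1.54, adjusted p = 0.0589) or without dox replicate 3 (1.88, adjusted p = 0.0580). In C2C12 iCdh23 it was at 0.0442, 0.0957 and 0.214 CPM without and 0.790, 0.647 and 0.999 CPM with dox (log2 fold change 2.71, adjusted p = 0.00200). Leaving out untreated replicate 3 raised that value to 3.45. In both cases the treated libraries were all above the untreated ones, at a level of about 1 CPM or less.

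*Lmod1* (ENSMUSG00000048096, chr1:135324807-135368065), whose product starts actin filaments, was called up with dox at 24 and 120 h in C2C12 iMyoD1 whole cultures. Its means ran from 0.613 CPM (SD 0.183, n = 3) at 24 h without dox to 22.0 CPM (SD 11.7, n = 3) in the dox-treated myotube-enriched fraction, 35.9-fold, and 9 of 15 neighbouring pairs overlapped. *Lmod1* was at 0.747, 0.405 and 0.687 CPM without and 1.53, 1.98 and 2.06 CPM with dox at 24 h (log2 fold change 1.63, edgeR adjusted p = 0.00031). At 120 h it was at 4.33, 3.71 and 2.26 CPM without and 11.4, 11.4 and 11.1 CPM with dox (1.71, adjusted p = 0.000438). The groups did not overlap at either time, and both calls held in all 11 alternatives; at 0 h (0.75) and 48 h (0.17) it was not called. Without dox it fell to 24 h (-2.73, adjusted p = 5.8e-07), rose to 48 h (3.79, adjusted p = 2.6e-09) and fell to 120 h (-1.22, adjusted p = 0.00116), the last not called without the 120 h replicate 3 (-0.99). In C2C12 iCdh23 *Lmod1* was at 5.35, 3.49 and 4.15 CPM without dox and at 1.66, 1.49 and 1.75 CPM with it (-1.41, adjusted p = 0.00109), and in C2C12 iMcam it was not called (-0.82). Its share of leiomodin TPM ran from 98.9% at 0 h with dox, before the striated *Lmod2* and *Lmod3* appeared, to 0.340% at 120 h without dox.

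*Actn1* (ENSMUSG00000015143, chr12:80167547-80260371), the nonmuscle alpha-actinin gene, was called in 2 of the 3 steps over time and in no dox comparison. Its means ran from 119 CPM (SD 11.05, n = 3) at 24 h without dox to 474 CPM (SD 19.6, n = 3) in untreated C2C12 iMcam, 3.99-fold, with 13 of 15 neighbouring pairs overlapping. It fell from 396, 391 and 370.0 CPM at 0 h to 119.9, 129 and 107 CPM at 24 h and returned to 325, 301 and 306 CPM at 48 h (log2 fold changes -1.69 and 1.44; edgeR adjusted p = 7.8e-11 and 8.4e-10). From 48 to 120 h it was not called (-0.33). No dox comparison called *Actn1*; the largest effect was in C2C12 iCdh23, from 413, 297 and 265 CPM to 222, 147 and 163 CPM, without overlap (-0.88, adjusted p = 0.00782).

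Counted together, most of the 10 genes were called in each step over time, all in 1 direction per step. From 0 to 24 h without dox, 0 of 9 tested were called up and 8 down, against 9.49% up and 16.6% down of 13632 genes, and their median log2 fold change was -2.73 (all genes, 0.01). From 24 to 48 h, 8 of 9 were called up and 0 down, against 19.3% and 11.1% of 14017 genes, with a median of 2.84 (all genes, -0.02). From 48 to 120 h, 0 of 9 were called up and 6 down, against 11.7% and 18.1% of 13786 genes, with a median of -1.22 (all genes, -0.03). The gene short of a call in the first 2 steps was *Srf*, and the 3 in the last were *Srf*, *Acta2* and *Actn1*. *Myh11* was too low to be tested. *Cnn1* is in these counts and medians, but in each step it passed the filter on low counts through its 0 or 48 h libraries, where it was high.

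With dox in C2C12 iMyoD1 fewer of them were called. At 0 h, 1 of 9 was called up and 0 down, against 2.91% and 1.36% of 13550 genes (median -0.04). At 24 h, 2 of 9 were called up and 0 down, against 8.02% and 5.13% of 14078 genes (median 0.49). At 48 h, 1 of 9 was called up and 0 down, against 5.93% and 8.46% of 13871 genes (median 0.05). In the 120 h whole culture, 3 of the same 9 were called up and 0 down, against 7.32% and 8.8% of 13628 genes (median 0.45). *Myh11*, called up there as well, is not counted, since it passed the filter on low counts at that time alone, where its dox libraries are high. *Cnn1* is in these counts and medians, but at 24 and 120 h it too passed that filter through its dox libraries. Without dox it lay at 0.147 to 0.291 CPM at 24 h and at 0.0894 to 0.423 CPM at 120 h. The calls apart from *Cnn1* were *Lmod1* at 24 h, and *Myl9* and *Lmod1* at 120 h. At these shares of falls under 1 gene of 9 would be called down in each comparison, so the absence of falls is close to the shares of all genes, and the single calls at 0 and 48 h, both of *Cnn1*, were lost under some alternatives. The medians of all genes were 0.00, 0.00, 0.01 and 0.00 in these comparisons. The genes called were *Cnn1* throughout, *Lmod1* at 24 and 120 h, and *Myl9* and *Myh11* at 120 h; no actin gene, *Srf* or *Actn1* was among them.

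**Figure D3:**
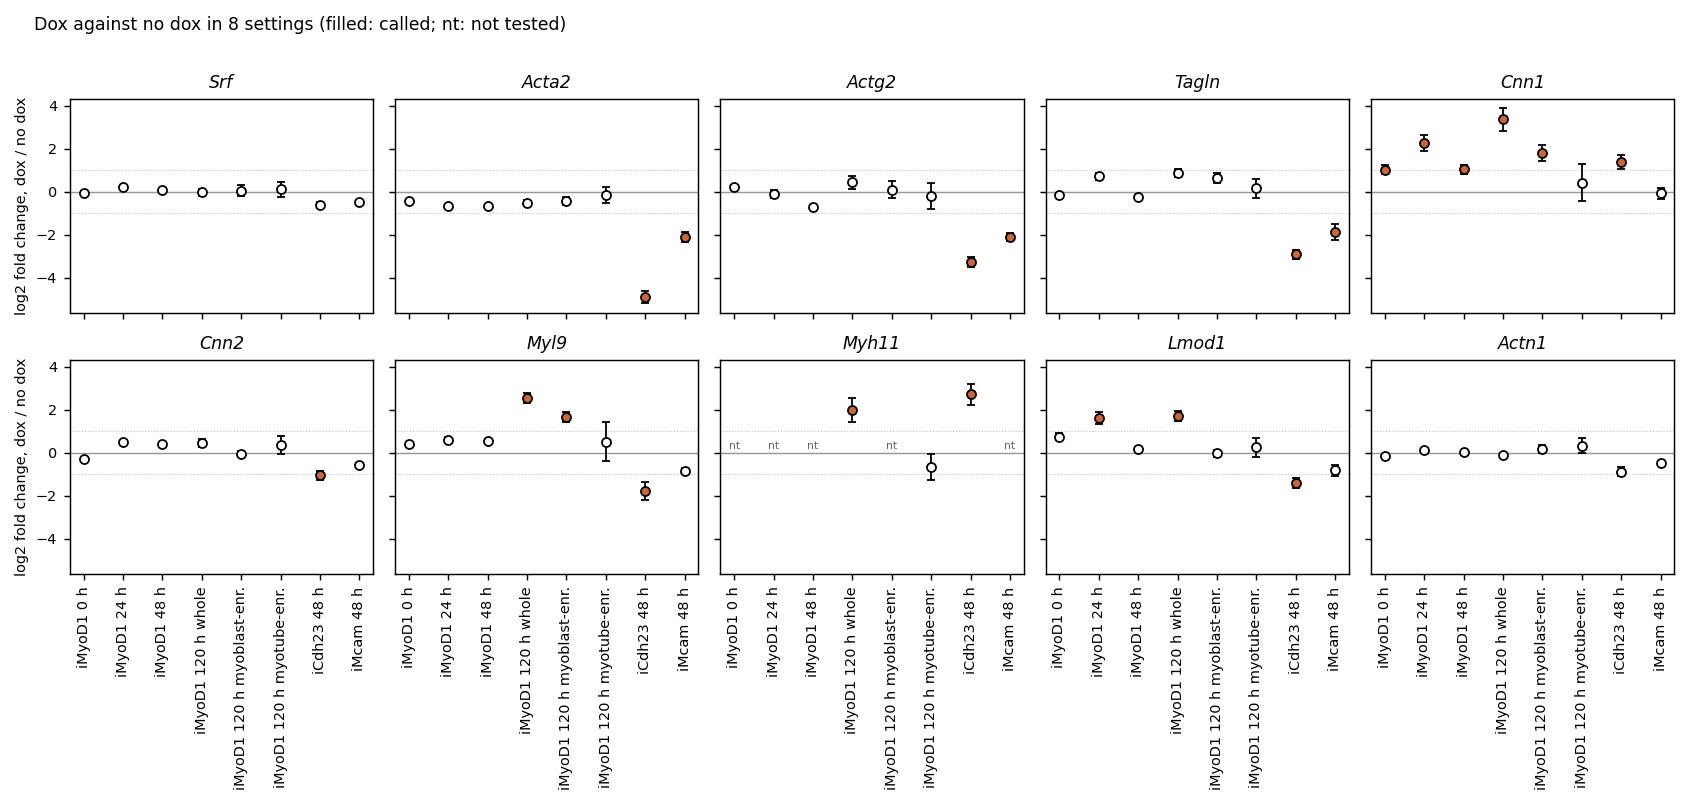
Log2 fold change with dox against no dox for each of the 10 genes in 8 comparisons, with bars of 1 standard error; filled points were called, nt marks genes not tested and dotted lines mark 2-fold. *Cnn1* reaches 3.35 in the 120 h whole culture, and *Acta2* -4.88 in C2C12 iCdh23.

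The 120 h fractions gave less certain results. In the myoblast-enriched fraction, 2 of 9 were called up and 0 down, against 1.21% and 1.82% of 14249 genes (median 0.08; all genes, -0.01). The counts behind these shares, 172 up and 260 down, were not stable: they were 429 and 679 with a replicate block, and ran from 0 to 177 and from 0 to 341 with 1 library left out. *Myl9* was at 43.7, 29.5 and 38.4 CPM without dox and at 135 and 98.1 CPM with it (log2 fold change 1.66, edgeR adjusted p = 0.0160), and *Cnn1* at 0.758, 0.455 and 0.814 CPM without and 2.60 and 2.08 CPM with it (1.80, adjusted p = 0.0452). All treated libraries were above all untreated ones, but with 2 treated replicates the calls were fragile. *Cnn1* was not called once any 1 of the 5 libraries was left out (log2 fold changes 1.56 to 1.97, adjusted p = 0.0600 to 0.284), while over all 10 alternatives its adjusted p ran from 0.00159 to 0.284. *Myl9* was not called without untreated replicate 3 (1.68), dox replicate 2 (1.40) or dox replicate 3 (1.87), nor with all groups in 1 fit (1.65), its adjusted p running from 1.8e-12 to 0.142 over 10 alternatives.

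In the myotube-enriched fraction edgeR called 0 of 10 genes up and 0 down, as it called 0% and 0% of all 14112 genes, although 79 genes had an unadjusted p under 0.05 and DESeq2 called 0 up and 1 down. *Myl9* was at 30.6, 129.2 and 28.2 CPM without dox and at 170.6, 10.9 and 72.0 CPM with it, and *Cnn1* at 0.984, 2.78 and 0.780 CPM without and 3.32, 0.255 and 2.31 CPM with it. For both genes replicate 2 was highest where the others were low and lowest where the others were high. Without the replicate 2 libraries the log2 fold change of *Myl9* was 2.09 in place of 0.50, that of *Cnn1* 1.70 in place of 0.42 and that of *Tagln* 0.66 in place of 0.15, and still no gene was called (adjusted p = 0.365, 0.493 and 0.643, n = 2 per group). The myotube-enriched fraction thus shows no tested change in these genes, and it is also the setting in which the labels are in doubt.

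Between the untreated fractions, 0 of 9 genes were called up in the myotube-enriched fraction and 0 down by edgeR, against 0.57% and 0.0143% of 14023 genes (80 up and 2 down, with 2251 genes at an unadjusted p under 0.05; DESeq2 called 399 up and 61 down). With a replicate block, which pairs the fractions of equal replicate number, edgeR called 322 of all genes up and 158 down. The counts for all genes depended on every library, and fell to 0 up without myotube-enriched replicate 3 or without myoblast-enriched replicate 1 or 2. *Acta2* was at 1521, 1683 and 2225 CPM in the myotube-enriched and at 2190, 3061 and 2891 CPM in the myoblast-enriched libraries (log2 fold change -0.57, adjusted p = 0.290), with overlapping groups. *Myl9* had a log2 fold change of 0.76 with all libraries and -0.32 without myotube-enriched replicate 2. For *Cnn2*, *Lmod1* and *Myh11* the libraries of the fractions did not overlap, with or without that replicate. The share of all genes that separate in this way was not counted, so these values describe levels only. *Cnn2* was at 116.8 to 156.5 CPM in the myotube-enriched and 182.0 to 229 CPM in the myoblast-enriched libraries, *Lmod1* at 14.6 to 26.9 and 11.9 to 13.7 CPM, and *Myh11*, not tested here, at 0.367 to 1.10 and 0.101 to 0.129 CPM. With all groups in 1 fit *Myh11* was the 1 gene of the 10 called up, as were 441 of all genes.

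In the adhesion gene lines most of the genes called were lower with dox. In C2C12 iCdh23, 1 of 9 was called up and 6 down, against 13% and 17% of 14227 genes, with a median log2 fold change of -1.41 (all genes, 0.00). *Myh11*, called up, is again not counted, as it passed the filter through its dox libraries. *Acta2*, *Actg2*, *Tagln*, *Cnn2*, *Myl9* and *Lmod1* fell, *Cnn1* and *Myh11* rose, and *Srf* and *Actn1* were lower by less than 2-fold. In C2C12 iMcam, 0 of 9 were called up and 3 down, against 6.99% and 9.85% of 13730 genes, with a median of -0.82 (all genes, 0.02). The 3 were *Acta2*, *Actg2* and *Tagln*. The smooth muscle actins and *Tagln* thus fell in both lines, and none of the 3 was called with dox in C2C12 iMyoD1 at 48 h, where all were lower by less than 2-fold (-0.69, -0.73 and -0.26), without overlap.

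Whether the dox effect itself differed was tested as an interaction. Between 0 and 24 h, 1 of 9 genes had an effect that was higher at 24 h and 0 a lower, against 2.82% and 2.64% of 14448 genes; this was *Cnn1*, not called without replicate 2 (0.75) or 3 (1.27). Between 24 and 48 h, 0 of 9 had a higher and 2 a lower effect at 48 h, against 4.24% and 8.96% of 15080 genes. These were *Lmod1* and *Cnn1*, the latter not called without replicate 2 (-1.01) or 3 (-1.10). Between 48 h and the 120 h whole culture, 5 of 9 had a higher and 0 a lower effect at 120 h, against 7.18% and 5.88% of 14734 genes. *Myh11* is not counted here, as it passed the filter on low counts through its dox libraries at 120 h. Of the 5, *Cnn1* was not called without replicate 2 (1.64), *Tagln* without replicate 3 (0.88) and *Actg2* without replicate 1 (1.13) or 3 (0.91). In the fit of all groups at once *Cnn1* was called in neither of the first 2 steps (1.19 and -1.15), and *Actg2* (1.15) and *Tagln* (1.11) were not called in the last. Without a low-count filter *Cnn1* was not called between 24 and 48 h (-1.24). Between the fractions edgeR called 0 of 10 higher and 0 lower, as it called 0% and 0% of 15008 genes (218 at an unadjusted p under 0.05; DESeq2 called 1 up and 1 down). For *Myl9* that difference changed from -1.19 to 0.40 without the replicate 2 libraries. Called with any replicate left out were the lower effect on *Lmod1* at 48 h than at 24 h (-1.46) and the higher effects on *Myl9* and *Lmod1* at 120 h than at 48 h (2.00 and 1.54).

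The lines were compared at 48 h in the same way. *Myh11* is not counted where C2C12 iCdh23 is compared, as it passed the filter on low counts through the dox libraries of that line. Against C2C12 iMyoD1, the dox effect in C2C12 iCdh23 was higher in 0 of 9 genes and lower in 6, against 4.24% and 12.1% of 14825 genes. Without replicate 2 *Myl9* (-2.02) was not among the 6. In C2C12 iMcam it was higher in 0 of 9 and lower in 4, against 0.863% and 1.57% of 14488 genes; without replicate 2 of both lines no gene of any kind was called, and with all groups in 1 fit *Acta2* alone of the 4 was, *Tagln* (-1.65), *Actg2* (-1.42) and *Myl9* (-1.40) not. *Tagln* was also not called without replicate 1 (-2.02). Between the adhesion gene lines, the effect in C2C12 iMcam was higher in 2 of 9 and lower in 1, against 5.47% and 1.02% of 14552 genes. The 2 were *Acta2*, which fell further in C2C12 iCdh23 whichever replicate was left out, and *Actg2*, not called without replicate 1 (0.99) or 2 (0.92). The lower effect was that on *Cnn1*, not called without any 1 replicate (-1.67, -1.70 and -1.10) or without a low-count filter (-1.49). Neither *Actg2* (1.13) nor *Cnn1* (-1.50) was called with all groups in 1 fit.

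Other genes known to answer actin signaling through MRTF and SRF were followed as a list of 24. With dox in C2C12 iMyoD1, 0 were called up and 0 down at 0 h (2.91% and 1.36% of all genes), 1 up and 4 down of 23 tested at 24 h (8.02% and 5.13%), 1 up and 3 down at 48 h (5.93% and 8.46%) and 0 up and 5 down in the 120 h whole culture (7.32% and 8.8%), with medians of -0.22, -0.37, -0.30 and -0.16. The counts at 0 and 48 h were close to the shares of all genes. *Mylk* was the gene that rose at 24 and 48 h (log2 fold changes 1.54 and 2.33), and *Ankrd1* fell at 24, 48 and 120 h (-2.84, -1.62 and -3.35). *Tagln2* also fell at all 3 times, *Zyx* at 24 and 120 h, *Fhl2* at 24 h, *Ccn2* at 48 h, and *Tln1* and *Myh9* at 120 h. In C2C12 iCdh23, 0 were called up and 16 down (13% and 17% of all genes) with a median of -1.36, led by *Ankrd1* (-4.40), *Ccn2* (-3.23) and *Ccn1* (-3.14). In C2C12 iMcam, 1 was called up (*Mylk*, 1.35) and 8 down (6.99% and 9.85% of all genes) with a median of -0.87, led by *Ccn2* (-3.62), *Ankrd1* (-1.88) and *Ccn1* (-1.49). *Acta2*, *Actg2* and *Tagln* thus fell alongside 16 of the listed genes in C2C12 iCdh23 and 8 in C2C12 iMcam. *Srf* was lower as well, by less than 2-fold (-0.62 and -0.50).

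Over time, the step from 24 to 48 h was the only one in which most of these 24 genes were called. From 0 to 24 h, 1 was called up and 8 down (median -0.96), against 9.49% and 16.6% of all genes. From 24 to 48 h, 14 were called up and 0 down (median 1.08), against 19.3% and 11.1%, and from 48 to 120 h, 2 up and 8 down (median -0.60), against 11.7% and 18.1%. The immediate early genes, 9 listed, are SRF targets of the other kind. Set against the same shares, they gave 0 up and 4 down from 0 to 24 h, led by *Egr2* (log2 fold change -4.50) and *Egr3* (-3.55), and 6 up and 0 down from 24 to 48 h, led by the same *Egr2* (5.99) and *Egr3* (5.38). In C2C12 iCdh23 they gave 1 up (*Fos*, 1.34) and 1 down (*Egr3*, -1.23), against 13% and 17% of all genes, which is close to that share.

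Genes used as markers of other cell types were summed per library. In a C2C12 line these transcripts do not by themselves show that such cells were present. Of 8 further smooth muscle markers, 1 (*Myocd*) never exceeded 1 CPM, *Pln* and *Kcnmb1* reached at most 1.02 and 1.07 CPM, and the sum ran from 92.2 to 2471 CPM, with *Casq2*, a gene of striated muscle as well (up to 1193 CPM), the most abundant in 21 of the 47 libraries, *Npnt* in 11, *Smtn* in 10 and *Synpo2* in 5. At 0 and 24 h *Casq2* was near 0, and *Npnt* (0 h) and *Smtn* (24 h) were the most abundant. Of 8 fibroblast markers only *Thy1* never exceeded 1 CPM; the sum ran from 504.5 to 15200 CPM, most of it *Col3a1*, which reached 13530 CPM. Of 6 pericyte markers, 2 (*Rgs5* and *Kcnj8*) never exceeded 1 CPM, and the sum ran from 138 to 1034 CPM, with *Pdgfrb* (up to 737 CPM) the most abundant in 39 libraries and *Notch3* in 8, all of them dox-treated. The 5 markers of endothelial, blood, epithelial and glial cells never summed to over 0.914 CPM. In C2C12 iCdh23 the fibroblast sum was 6185, 6345 and 7208 CPM without dox and 741, 601 and 707 CPM with it, and the sum of 8 skeletal muscle markers 3824, 4704 and 5556 CPM without and 347, 307 and 407 CPM with it. In C2C12 iMcam the fibroblast sum was 7624, 8930 and 10630 CPM without and 3154, 3590 and 3970 CPM with dox. There the skeletal sum was 2723, 3630.0 and 5772 CPM without and 627, 663 and 1338 CPM with dox. In C2C12 iMyoD1 whole cultures the fibroblast sum was also lower with dox, with means of 1929 and 1184 CPM at 0 h, 1593 and 519.8 CPM at 24 h, 8846 and 4248 CPM at 48 h and 6015 and 3061 CPM at 120 h, and in the myoblast-enriched fraction of 14700.0 and 5571 CPM. Most of that sum was *Col3a1*. Of the single fibroblast markers tested with dox, 0 of 4 were called at 0 h, 1 of 5 (*Col3a1*) down at 24 h, 2 of 6 down at 48 h, 2 of 7 down and 1 up at 120 h, 5 of 7 down in the myoblast-enriched fraction, 6 of 6 down in C2C12 iCdh23 and 3 of 6 down in C2C12 iMcam. Of all genes, 1.36%, 5.13%, 8.46%, 8.8%, 1.82%, 17% and 9.85% were called down in these comparisons, in the same order. At 120 h 7.32% were called up. The few calls at 24, 48 and 120 h were not tested against these shares. *Fap* was at 0.574 to 0.812 CPM without and 0 CPM with dox in C2C12 iCdh23. In the myoblast-enriched fraction it was at 0.455 to 1.085 CPM without and 0.0481 and 0.0975 CPM with dox. In both it could pass the filter on low counts only through its untreated libraries, so its fall adds no support there. *Col1a1* and *Postn* were the 2 that fell at 48 h (log2 fold changes -2.25 and -2.42) and 120 h (-1.43 and -1.92), and *Lum* rose at 120 h (1.82). *Dcn* and *Lum* stood at 0.84 and 0.87 at 48 h, and in C2C12 iMcam at 0.40 and 1.37, not called. In whole cultures the skeletal sum was higher with dox at 0 h (612 and 754 CPM) and 24 h (387 and 428 CPM), lower at 48 h (8024 and 4010.0 CPM) and overlapping at 120 h (7304 and 5780.0 CPM), and in the myoblast-enriched fraction it was lower (5196 and 3675 CPM). The means of the smooth muscle sum were 908 and 214.5 CPM in C2C12 iCdh23, 736 and 341 CPM in C2C12 iMcam, and 349 and 356, 97.4 and 107.8, 963 and 502, and 1921 and 1601 CPM at 0, 24, 48 and 120 h in C2C12 iMyoD1 whole cultures, each without and with dox. Those of the pericyte sum were, in the same order, 648 and 288, 965 and 452, 397 and 339, 147 and 169, 739 and 393, and 616 and 294 CPM. In the myoblast-enriched fraction the smooth muscle means were 741.5 and 575 CPM and the pericyte means, of overlapping libraries, 668 and 439.5 CPM. In the myotube-enriched fraction all 4 sums overlapped between treated and untreated libraries. Without its replicate 2 libraries the fibroblast sum was 14870 and 10060 CPM without and 4001 and 8067 CPM with dox, and the smooth muscle sum 1293 and 1999 CPM without and 928 and 637 CPM with it, while the other 2 still overlapped. The dox effects on the 10 genes thus stood beside differences in these sums in all 3 lines, and the part of these transcripts in the results was not tested.

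Genes with the most similar course over the 16 group means, which are not independent of each other, were sought among 10887 genes by Pearson correlation. For *Srf* they were *Cnn2* (r = 0.952), *Rem1* (0.949), *Arhgef40* (0.943), *Fscn1* (0.938) and *Adra1d* (0.927). For *Acta2* they were *Prss23* (0.966), *Pmepa1* (0.965), *Tgfb3* (0.963), *Sertad4* (0.961) and *Col4a1* (0.960). *Tagln* ranked 44 for *Acta2* (0.917), while *Acta2* ranked 1666 for *Srf* (0.492). For *Srf*, *Actn1* ranked 156 (0.805), *Tagln* 370 (0.730), *Myl9* 480 (0.701), *Actg2* 1083 (0.582) and *Lmod1* 1624 (0.498). For *Acta2*, *Myl9* ranked 551 (0.774), *Lmod1* 581 (0.766), *Actn1* 616 (0.758), *Actg2* 1387 (0.568) and *Cnn2* 1973 (0.438).

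The 250 bases upstream of the start used in the RefSeq promoter table were available for 7 of the 10 genes and were searched on both strands for the CArG box and for CAGCTG, the E-box preferred by MyoD1; *Actg2*, *Tagln* and *Myh11* were not in the promoter table. A CArG box without mismatch was found in 3 of the 7: *Srf* held 2, starting 82 and 62 bases upstream, *Cnn2* held 1 at 56 bases and *Myl9* 1 at 161 bases. With up to 1 mismatch in the inner 6 bases *Acta2* was added, with boxes 84 and 34 bases upstream, and *Myl9* held a further box 99 bases upstream. CAGCTG was found in 2, *Acta2* (182 bases upstream) and *Lmod1* (45 bases). *Cnn1* and *Actn1* held neither. By the GENCODE coordinates given above, 217 of the 250 bases for *Acta2*, with all its matches, lie inside the gene, downstream of the start in that annotation; of the other windows 6 to 44 bases and no match lie inside. Of 32851 promoters in the table, 1.47% held a CArG box without mismatch, 8.59% with up to 1 mismatch and 13% CAGCTG. A match describes the sequence, and binding was not tested. The 5 promoters with a match are shown because they hold these boxes, which capitals mark (mouse genome GRCm38.p6; *Srf* chr17:46556163-46556412 (minus strand), *Acta2* chr19:34255374-34255623 (minus strand), *Cnn2* chr10:79988350-79988599 (plus strand), *Myl9* chr2:156775214-156775463 (plus strand) and *Lmod1* chr1:135324563-135324812 (plus strand)):
Srf: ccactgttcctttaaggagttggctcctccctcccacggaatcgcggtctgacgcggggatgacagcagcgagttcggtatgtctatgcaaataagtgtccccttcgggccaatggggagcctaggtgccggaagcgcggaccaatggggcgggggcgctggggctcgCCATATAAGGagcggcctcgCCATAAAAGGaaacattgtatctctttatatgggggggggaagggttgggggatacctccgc
Acta2: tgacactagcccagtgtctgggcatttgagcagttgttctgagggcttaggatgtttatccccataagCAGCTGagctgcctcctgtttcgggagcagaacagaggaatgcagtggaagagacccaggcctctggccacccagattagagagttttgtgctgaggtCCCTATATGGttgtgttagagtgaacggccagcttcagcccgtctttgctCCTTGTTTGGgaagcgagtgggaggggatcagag
Cnn2: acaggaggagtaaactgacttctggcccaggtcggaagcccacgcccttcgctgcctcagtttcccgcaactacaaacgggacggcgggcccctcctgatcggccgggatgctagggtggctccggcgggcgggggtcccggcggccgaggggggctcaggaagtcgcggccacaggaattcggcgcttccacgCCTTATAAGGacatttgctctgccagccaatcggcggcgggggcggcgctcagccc
Myl9: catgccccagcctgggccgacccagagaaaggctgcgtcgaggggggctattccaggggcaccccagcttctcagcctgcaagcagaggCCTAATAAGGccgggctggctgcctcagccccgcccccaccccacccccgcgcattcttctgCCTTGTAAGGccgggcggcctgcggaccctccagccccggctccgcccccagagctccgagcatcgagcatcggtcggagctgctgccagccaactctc
Lmod1: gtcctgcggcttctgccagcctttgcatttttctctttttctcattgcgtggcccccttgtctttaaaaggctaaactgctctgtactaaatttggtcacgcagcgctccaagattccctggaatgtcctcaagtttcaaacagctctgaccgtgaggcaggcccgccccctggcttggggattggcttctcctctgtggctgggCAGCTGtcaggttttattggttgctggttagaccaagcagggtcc

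**Figure D4:**
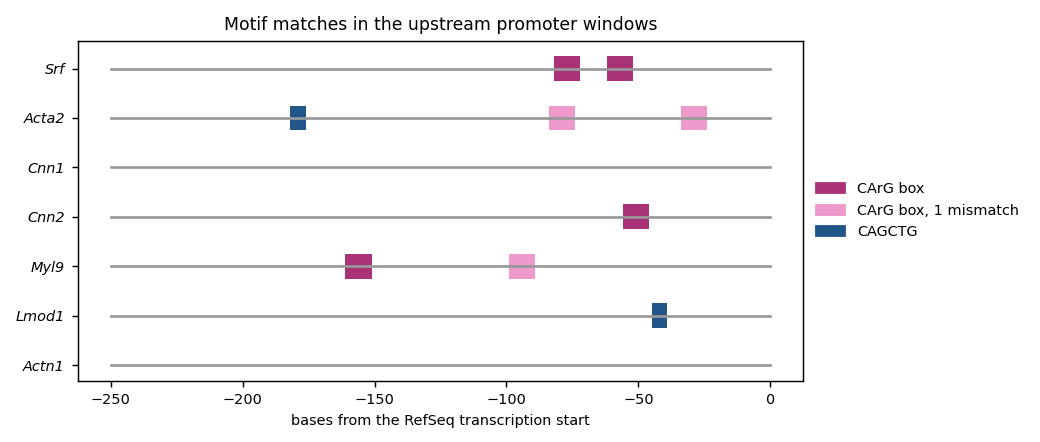
Positions of CArG boxes and of CAGCTG in the 250 bases upstream of the RefSeq start of 7 of the 10 genes, in bases from that start. *Srf* holds 2 exact CArG boxes, 82 and 62 bases upstream, and *Cnn1* and *Actn1* hold neither motif.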

How the data were processed

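RNA-seq of 47 libraries in 16 groups was used. The authors quantified reads with salmon, and each deposited value is an estimated count per transcript, not scaled to depth or length (30.97% to 34.36% of values were not whole). Of the 109617 transcripts 98.72% were in GENCODE vM21 (GRCm38).

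Estimated counts were summed per gene and rounded. Levels are CPM with TMM factors over all libraries. TPM was derived from transcript lengths. Reads had no molecular identifiers, so floors of 3 counts cover counting error only. Each comparison used its own groups in edgeR 4.0.16 (R 4.3.3): filterByExpr, TMM, quasi-likelihood test and Benjamini-Hochberg adjustment over all genes tested. A gene was called at an adjusted p under 0.05 and a change over 2-fold. With 3 libraries against 3 an exact permutation test cannot go below p = 0.1. Differences between dox effects were tested as interactions. The code was tested on simulated data.

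The 10 genes and the lists were chosen with earlier results of these data known. Of the 10, each called gene was named, and effects not called for some genes only. From each list up to 3 called genes per direction were named, by size of the change. Further list genes were named after their values were seen.

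Residuals of equal replicate numbers correlated in C2C12 iMcam (0.362, 0.227 and 0.419), the myoblast-enriched dox comparison (0.431 and 0.300) and the fraction comparison (0.413, 0.117 and 0.189), so a paired fit with a replicate block was among the alternatives. The others were RLE normalization, DESeq2 1.42.0, no filter on low counts, all groups in 1 fit, each library or replicate left out, and, chosen after seeing the data, the myotube-enriched libraries of replicate 2 left out.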

Additional observations from a re-analysis of the deposited data

Results flagged for a closer look

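The results below are those in which the effect of dox differed between a pair of settings, tested in edgeR as an interaction (adjusted p under 0.05, over 2-fold). Values are differences of log2 fold changes. No explanation was tested.

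Over time in C2C12 iMyoD1, the effect on *Cnn1* was higher by 1.18 at 24 h than at 0 h and then changed by -1.21 from 24 to 48 h. Neither held: the first was 0.75 without replicate 2 and 1.27 without replicate 3, the second -1.01 and -1.10, none of these called. Neither was called with all groups in 1 fit (1.19 and -1.15), nor the second without a low-count filter (-1.24). The effect on *Lmod1* changed by -1.46 from 24 to 48 h, and this call held in all 8 alternatives.

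From 48 h to the 120 h whole culture the effect was higher for *Cnn1* (2.31), *Myl9* (2.00), *Lmod1* (1.54), *Actg2* (1.15) and *Tagln* (1.11). Those on *Myl9* and *Lmod1* held in all 8 alternatives. *Actg2* (1.15) and *Tagln* (1.11) were not called with all groups in 1 fit. The value for *Cnn1* was 1.64 without replicate 2 and that for *Tagln* 0.88 without replicate 3, not called. The value for *Actg2* was 1.13 without replicate 1 and 0.91 without replicate 3, not called; that gene had changed in neither setting alone past the fold threshold.

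At 48 h the effect in C2C12 iCdh23 was lower than in C2C12 iMyoD1 for *Acta2* (-4.18), *Tagln* (-2.63), *Actg2* (-2.53), *Myl9* (-2.32), *Lmod1* (-1.56) and *Cnn2* (-1.43). All held in all 8 alternatives except *Myl9*, which was -2.02 and not called without replicate 2.

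In C2C12 iMcam the effect was lower than in C2C12 iMyoD1 for *Tagln* (-1.63), *Acta2* (-1.41), *Actg2* (-1.40) and *Myl9* (-1.38). Without replicate 2 none was called, at -1.60, -1.25, -1.39 and -1.24, as 0 of all genes were then called; *Tagln* was also not called without replicate 1 (-2.02). With all groups in 1 fit *Tagln* (-1.65), *Actg2* (-1.42) and *Myl9* (-1.40) were not called. Against C2C12 iCdh23, the effect in C2C12 iMcam was higher for *Acta2* (2.77) and *Actg2* (1.13) and lower for *Cnn1* (-1.49). *Acta2* held in all 8 alternatives. *Actg2* was 0.99 without replicate 1 and 0.92 without replicate 2, not called. *Cnn1* was not called once any replicate was left out (-1.67, -1.70 and -1.10) or without a low-count filter (-1.49). Neither *Actg2* (1.13) nor *Cnn1* (-1.50) was called with all groups in 1 fit. Groups of 3 libraries, and of 2 after 1 is left out, limit all of these.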

How the results depend on the processing

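The 274 results were computed again under the alternatives, and of 2543 values so obtained 2281 kept their direction and their side of the threshold. Of 1767 values of single genes, 1596 stayed the same, 105 became weaker, 23 stronger and 43 changed sign, 39 of those when a library or replicate was left out. The calls of *Acta2*, *Actg2* and *Tagln* in C2C12 iCdh23 and C2C12 iMcam, and nearly all calls over time, held under every alternative. For each change given below, the cause was not tested.

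With all groups in 1 fit the following counts moved. At 0 h there were 0 of the 10 genes up, and 257 up and 84 down of all genes; at 48 h 0 of the 10 up; in the myoblast-enriched fraction 1 up. In the myotube-enriched fraction 1 gene was up and 2 down, and between the untreated fractions 1 of the 10 genes was up, with 441 up and 195 down of all. For differences between dox effects it gave 0 of the 10 genes (139 up and 182 down of all) from 0 to 24 h, 1 down from 24 to 48 h, 3 up from 48 to 120 h and 2 of all genes down between the fractions. Between C2C12 iMcam and C2C12 iMyoD1 it gave 1 of the 10 genes down (12 up and 45 down of all), and between C2C12 iMcam and C2C12 iCdh23 1 up and 0 down (74 of all down).

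DESeq2 called 450 genes down in the myoblast-enriched fraction, 1 down in the myotube-enriched fraction, 399 up and 61 down between the untreated fractions, 1 up and 1 down for the dox effect between the fractions, and 1 of the 10 genes up between C2C12 iCdh23 and C2C12 iMyoD1. Without a low-count filter 365 genes were up and 591 down in the myoblast-enriched fraction, 1 was down in the myotube-enriched fraction, 322 were up and 43 down between the untreated fractions, 394 were down between C2C12 iMcam and C2C12 iMyoD1, and 0 of the 10 genes were down between C2C12 iMcam and C2C12 iCdh23.

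With a replicate block (paired fit) 429 genes were up and 679 down in the myoblast-enriched fraction, where *Cnn2* changed from -0.06 to 0.036, and 322 were up and 158 down between the untreated fractions. The difference of dox effects between the fractions became -0.27 for *Srf* and -0.059 for *Actn1*. With the myotube-enriched libraries of replicate 2 left out, an alternative chosen after seeing the data, that difference became 0.40 for *Myl9*.

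Leaving out 1 library at a time moved these counts of called genes, given as lowest to highest. At 0 h there were 0 to 1 of the 10 genes up. At 48 h there were 0 to 1 of the 10 genes up. In the myoblast-enriched fraction there were 0 to 1 of the 10 genes up, 0 to 177 of all genes up and 0 to 341 of all genes down. Between the untreated fractions there were 0 to 206 of all genes up and 0 to 27 of all genes down.

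The effects below changed sign when a library was left out, and none of them had been called. At 0 h the range was *Srf* -0.085 to 0.001. At 24 h the range was *Actg2* -0.24 to 0.083. At 48 h the range was *Actn1* -0.023 to 0.066. In the 120 h whole culture the range was *Srf* -0.17 to 0.15. In the myoblast-enriched fraction the ranges were *Cnn2* -0.18 to 0.042, *Srf* -0.090 to 0.33, *Actg2* -0.26 to 0.35 and *Lmod1* -0.13 to 0.035. In the myotube-enriched fraction the ranges were *Actg2* -0.62 to 0.18, *Srf* -0.22 to 0.34, *Acta2* -0.35 to 0.026, *Tagln* -0.41 to 0.46, *Cnn1* -0.19 to 1.18, *Cnn2* -0.11 to 0.68, *Myl9* -0.57 to 1.57 and *Lmod1* -0.33 to 0.56. In C2C12 iMcam the range was *Cnn1* -0.22 to 0.064. Between the untreated fractions the ranges were *Myl9* -0.32 to 1.11 and *Srf* -0.31 to 0.12.

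For differences between dox effects, leaving out 1 replicate at a time moved these counts. From 0 to 24 h there were 0 to 2 of the 10 genes up. From 24 to 48 h there were 1 to 2 of the 10 genes down. From 48 to 120 h there were 556 to 1099 of all genes down and 3 to 4 of the 10 genes up. Between C2C12 iCdh23 and C2C12 iMyoD1 there were 302 to 637 of all genes up and 0 to 1 of the 10 genes up. Between C2C12 iMcam and C2C12 iMyoD1 there were 0 to 152 of all genes up, 0 to 405 of all genes down and 0 to 5 of the 10 genes down. Between C2C12 iMcam and C2C12 iCdh23 there were 1 to 4 of the 10 genes up, 85 to 861 of all genes up, 0 of the 10 genes down and 8 to 133 of all genes down.

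Differences between dox effects that changed sign with a replicate left out were these, none called. From 24 to 48 h the ranges were *Acta2* -0.096 to 0.018 and *Myl9* -0.30 to 0.16. From 48 to 120 h the ranges were *Srf* -0.26 to 0.20 and *Cnn2* -0.13 to 0.27. Between the fractions the ranges were *Srf* -0.42 to 0.43, *Lmod1* -0.30 to 0.81, *Tagln* -1.01 to 0.37, *Cnn1* -2.27 to 0.26, *Myl9* -2.66 to 0.78 and *Actn1* -0.028 to 0.38. Depth limits *Myh11*, *Cnn1* and *Myocd*: their values rest on few counts per library.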
